A study of Bos taurus with 11 samples.

Results

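The transcripts described here encode mitochondrial ribosomal proteins, measured in the uterine endometrium of dairy cows shortly after calving. Members were the genes whose probe set carried a single annotated symbol beginning with MRPL or MRPS and a number. They were 67 of 9155 named genes, 43 named for the large subunit (MRPL) and 24 for the small subunit (MRPS). Subunits are counted by name unless stated otherwise, although MRPS18A, MRPS30 and MRPS36 belong elsewhere by structure. Where a gene had several probe sets, the brightest on average over the 11 cows stood for it. A further 11 such genes of the RefSeq gene table, MRPL1, MRPL17, MRPL33, MRPL40, MRPL47, MRPL54, MRPS10, MRPS12, MRPS18C, MRPS21 and MRPS33, were not analysed here. The tissue came from multiparous Holstein-Friesian animals (average parity 4.7) killed 14 ± 0.4 days after calving (error as labelled). From day 2 the 5 mild cows had free access to silage with 8 kg of concentrate a day and 1 milking. Over the same days the 6 severe cows had 25 kg of silage, 4 kg of concentrate and 3 milkings, a regime meant to deepen the energy deficit of early lactation. Feeding and milking thus differed together, and the tissue is a whole mucosa in which epithelium, stroma, vessels and leukocytes are mixed. All animals had recently calved, so there was no group in positive energy balance.

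Mitochondria keep their own ribosome, which translates the few proteins encoded in mitochondrial DNA, all of them core subunits of the respiratory chain and ATP synthase. Its RNA is mitochondrial, but its proteins are encoded in the nucleus, made in the cytosol and imported, so both genomes have to be expressed for a respiratory chain to be built. Some of the proteins have bacterial relatives, while others were gained in the mitochondrial lineage and lie mostly on the surface of the particle. The large subunit forms peptide bonds and passes the chain out at the inner membrane, and the small subunit binds the messenger RNA and reads its codons.

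The values are RMA log2 signals, on which a difference of 1 is a doubling. All arrays had a median of 6.20 and were correlated with each other at 0.948 to 0.991. The mean signal of the members over all cows ran from 6.09 to 9.99, and 0 of 67 had a group mean under 5.52, below which the dimmest 40% of the probe sets lie. Of 11 epithelial markers 6 were lower in severe cows (median difference -0.0025; CLDN10 was 2.00-fold lower and CLDN4 1.56-fold higher), and of 10 stromal markers 5 were (median 0.023; HOXA10 was at -0.71 and PDGFRA at 0.97). Neutrophil markers were all higher in severe cows, by 2.85 in the median of 6 genes. Their average log2 signal, each gene taken minus its mean over all cows, did not overlap between the groups. In mild cows CXCR1, TREM1 and IL1R2 averaged 4.70, 4.46 and 4.01, under the limit of 5.52.

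Most mitochondrial ribosomal protein transcripts had a lower mean in severe than in mild cows, by small amounts. The mean was lower in severe cows for 59 of 67 members, against 51.1% of the 9155 genes and 50.6% of those that were not dim. The median log2 difference was -0.13, while that of all genes was -0.0038. No single member passed the test: at a limma adjusted p under 0.05 there were 0 of 67 members and 0 (0%) of all 24016 probe sets, and the smallest adjusted p among members was 0.282. At an unadjusted limma p under 0.05, 17 members were lower and 0 higher in severe cows. The same threshold took 5.88% of all probe sets as lower and 6.97% as higher, and 7.46% of genes with 1 probe set each as lower, or 8.60% of the genes that were not dim. For 22 members 6 of 6 severe cows lay below the mild mean. The share of all genes with this pattern was not counted, so nothing is read from that number. Differences ranged from -0.70 for MRPS36 to 0.12 for MRPL3, and the 7 members with the most negative differences were at least 1.27-fold lower. The smallest adjusted p was also that of MRPS36, which is not a ribosomal protein by structure. Without it the most negative difference was -0.52 and the smallest limma adjusted p was 0.294. In a tissue extract, fewer cells rich in mitochondria and less of these messengers per cell cannot be told apart.

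**Figure D1:**
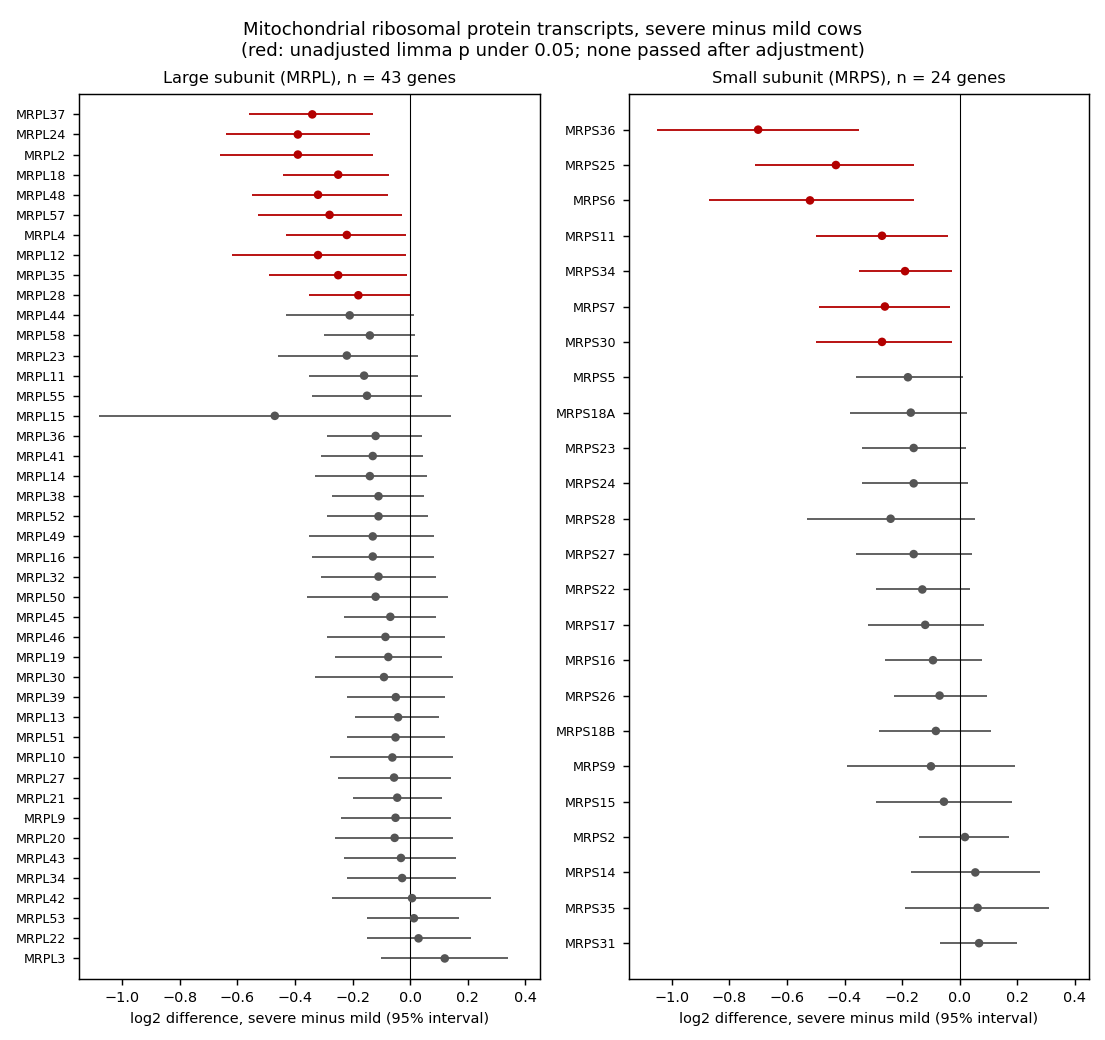
Log2 difference (x axis, severe minus mild cows, n = 6 and 5) of each of the 43 large and 24 small subunit genes, with 95% limma intervals, ordered by the moderated statistic. Red marks the 17 genes at an unadjusted p under 0.05, all of them lower in severe cows, and 0 passed after adjustment.

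The count of 17 depended on single animals. It was 9 without mild 2, 11 without mild 3, 10 without mild 4, 11 without severe 2 and 10 without severe 4, and it was 30 without mild 5. Over the same omissions the share of all probe sets taken as lower was 5.10%, 4.39%, 4.26%, 4.34% and 4.03%, and 8.37% without mild 5. The 8 members MRPL2, MRPL18, MRPL24, MRPL37, MRPL48, MRPS6, MRPS25 and MRPS36 were at that threshold in 21 of 22 alternatives, all but the one with the neutrophil score as a covariate. With any 1 cow left out, 55 to 62 of 67 members had a lower mean in severe cows, and the median difference ran from -0.17 to -0.094. Mild 2 and severe 5 were also left out together, since their arrays stood apart in an earlier look at these data. That left 10 members lower at an unadjusted p under 0.05 (9 of the 17, and MRPL55), against 5.40% of all probe sets, with MRPL3 higher at 0.22 and a median of -0.10.

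Both subunits were lower on average in severe cows, by nearly the same amount. The median difference of the large subunit was -0.12, with 39 of 43 members lower and 10 at an unadjusted p under 0.05. The small subunit had a median of -0.16, with 20 of 24 lower and 7 at that threshold. The medians were 0.040 apart, and this gap closed to 0.0016 when proteins were assigned by their place in the structure. That assignment counts MRPS18A and MRPS30, which sit in the large subunit, as large (45 genes) and leaves out MRPS36, leaving 21 small subunit genes with a median of -0.13. No test was made of the gap. The mean deviation of a subunit in a cow is the average over its genes of the log2 signal minus the mean of that gene over all cows. In mild 1 to mild 5 it was 0.051, 0.23, 0.065, 0.13 and -0.091 for the large subunit, and 0.072, 0.29, 0.061, 0.14 and -0.10 for the small one. In severe 1 to severe 6 it was -0.070, -0.11, 0.016, -0.14, -0.020 and -0.059 for the large subunit and -0.095, -0.10, 0.031, -0.15, -0.040 and -0.12 for the small one. The 2 subunits had the same sign in every cow and were at most 0.064 apart. Mild 5 lay among the severe cows and severe 3 near the lower mild cows, so the groups overlapped in both subunits.

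**Figure D2:**
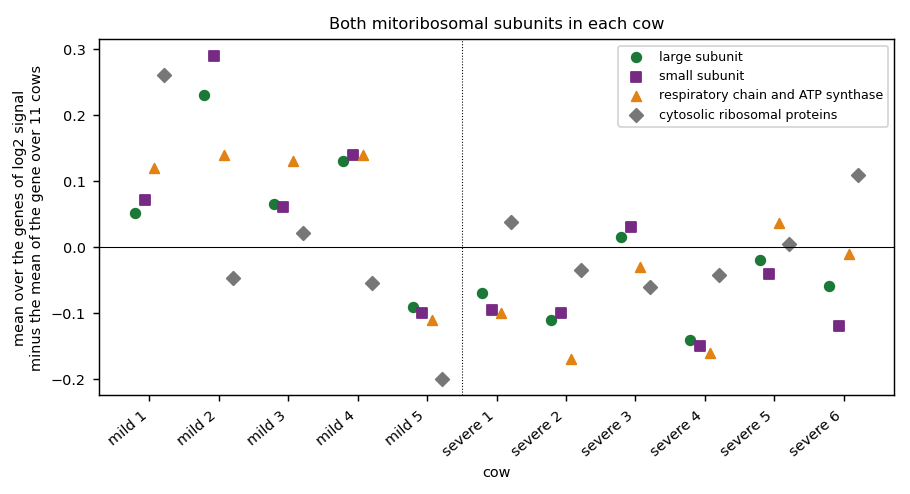
Mean deviation (y axis, log2 units) of the large (43 genes) and small (24 genes) subunit, of respiratory chain and ATP synthase subunits (79 genes) and of cytosolic ribosomal proteins (62 genes) in each cow (x axis, mild left and severe right of the dotted line). Large and small subunit symbols lie close together in all 11 cows, with mild 2 highest at 0.23 and 0.29 and severe 4 lowest at -0.14 and -0.15.

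Relatives of bacterial ribosomal proteins and proteins found only in mitochondria had similar medians. Of the bacterial-type proteins 24 of 26 in the large and 11 of 13 in the small subunit were lower, with medians of -0.13 and -0.12. Of the mitochondria-specific ones 15 of 17 in the large and 6 of 8 in the small subunit were lower, with medians of -0.11 and -0.14. These subsets were described, not tested against each other.

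At the peptidyl transferase centre, where peptide bonds form, 4 members were measured, with a median difference of -0.092. MRPL2, a core protein of the centre and of the contact between subunits, had signals of 8.00, 7.74, 7.82, 7.80 and 7.64 in the mild cows and 7.47, 7.05, 7.65, 7.17, 7.67 and 7.44 in the severe cows. Severe 2 and severe 4 were the lowest, severe 3 and severe 5 just passed mild 5, and the mean was 1.31-fold lower in severe cows. Its log2 difference was -0.39 ± 0.12 (SE, limma adjusted p = 0.306). MRPL3, a further core protein of this region, was on the opposite side, with 9.62 ± 0.18 (SD, n = 5) in mild cows against 9.75 ± 0.16 (SD, n = 6) in severe ones. That difference of 0.12 was the highest of all members, and its interval ran from -0.10 to 0.34. MRPL16 and MRPL27, which contact transfer RNA near the centre, differed by -0.13 and -0.056.

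Around the exit tunnel and its membrane anchor 5 of 6 measured members were lower, with a median of -0.14. MRPL24, whose bacterial relative starts the assembly of the large subunit, read 7.39, 7.66, 7.53, 7.68 and 7.28 in mild cows. In severe cows it read 7.24, 6.79, 7.26, 6.94, 7.34 and 7.13, and 5 of 6 of these lay below the lowest mild cow. The log2 difference was -0.39 ± 0.11 (SE, limma adjusted p = 0.301), or 1.31-fold lower. MRPL44, which carries a fold related to ribonuclease III, differed by -0.21 with an interval from -0.43 to 0.014. MRPL45, which ties the particle to the inner membrane, differed by -0.069, and MRPL22, which lines the tunnel, by 0.029. MRPL23, at the mouth of the tunnel, was measured by 3 probe sets, at -0.22, -0.19 and -0.13, none of them at an unadjusted p under 0.05. MRPL4, a further tunnel protein outside the role list, differed by -0.22 ± 0.095 (SE).

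The central protuberance, the crown of the large subunit that faces the small one, had 6 of 6 measured members lower, with a median of -0.20. Of these, 3 were at an unadjusted p under 0.05, a threshold that took 7.46% of all genes as lower. The role lists were described, not tested against each other. MRPL18, whose relatives bind the small ribosomal RNA of that crown, had signals of 8.49, 8.59, 8.59, 8.64 and 8.38 in mild and 8.44, 8.14, 8.31, 8.11, 8.45 and 8.25 in severe cows. All severe cows lay below the mild mean, and 4 lay below mild 5, the lowest mild cow. Its difference was -0.25 ± 0.083 (SE, limma adjusted p = 0.308). MRPL48, a mitochondria-specific part of the crown, averaged 7.11 ± 0.25 (SD, n = 5) in mild cows against 6.79 ± 0.09 (SD, n = 6). Its mild values formed a higher set, 7.28, 7.32 and 7.25 in mild 2 to mild 4, and a lower one, 6.95 in mild 1 and 6.74 in mild 5, which was near the lowest severe value of 6.68. MRPL35 differed by -0.25, MRPL55 by -0.15, MRPL38 by -0.11 and MRPL46 by -0.086.

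In the stalks, which receive the elongation factors, 3 of 4 measured members were lower. MRPL12, the flexible stalk protein that recruits those factors, stood at 8.74, 8.77, 8.78, 8.66 and 8.32 in mild cows and 8.26, 8.11, 8.53, 7.92, 8.60 and 8.58 in severe cows. The first 4 mild cows exceeded every severe cow, and mild 5 lay within the severe range. The difference was -0.32 ± 0.14 (SE, limma adjusted p = 0.373), and the exact two-sided permutation p over all splits of the cows was 0.0693. MRPL11 and MRPL10, which form the base of the stalk, differed by -0.16 and -0.062, and MRPL53 by 0.013.

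Among the other large subunit proteins MRPL37, found only in mitochondria, was 1 of 2 members whose groups did not overlap. It read 8.40, 8.81, 8.47, 8.80 and 8.36 in mild cows and 8.32, 8.15, 8.27, 8.11, 8.22 and 8.27 in severe cows. The severe values were tight, with an SD of 0.08 against 0.22, and the closest pair, mild 5 and severe 1, was only 0.037 apart. The difference was -0.34 ± 0.10 (SE, limma adjusted p = 0.294). Of all probe sets 0.408% did not overlap with severe cows lower, and of the 9155 genes 0.437%; on the other side, 0.662% of all probe sets had every severe cow higher. MRPL57, a small mitochondria-specific protein, differed by -0.28 ± 0.12 (SE), but its other probe set differed by -0.029 ± 0.16. MRPL58, a hydrolase that frees stalled ribosomes, differed by -0.14. MRPL28 was the member closest to the threshold from inside, at -0.18 with an unadjusted limma p of 0.0481. MRPL15, singled out after its values were seen, had the widest error of all members: it ranged from 6.87 to 8.47 in mild and from 6.60 to 7.76 in severe cows. Its difference of -0.47 had an SE of 0.28 and an interval from -1.08 to 0.14.

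In the small subunit 20 of 24 members were lower, and after MRPS36 the most negative differences were those of MRPS6 and MRPS25. MRPS25, a mitochondria-specific protein, read 7.08, 7.42, 7.19, 7.24 and 6.99 in mild cows, and from 6.31 to 7.01 with a median of 6.75 in severe cows. Severe 2 was the lowest, and severe 1 and severe 3 reached just above mild 5. Its difference was -0.43 ± 0.13 (SE, limma adjusted p = 0.296), or 1.35-fold lower. MRPS6, a bacterial-type protein of the platform, read 8.96, 9.10, 8.92, 9.07 and 8.65 in mild and 8.64, 8.55, 8.95, 8.04, 8.25 and 8.10 in severe cows. Severe 3 sat at the mild mean and the other 5 below the lowest mild cow, by a wide margin in severe 4, severe 5 and severe 6. The difference of MRPS6 was -0.52 ± 0.16 (SE, limma adjusted p = 0.307). It was 0.016 in the fit with the neutrophil score, the mean deviation of the neutrophil markers, as a covariate. Every severe cow scored above every mild cow, so that fit cannot separate the score from the regime. Whether neutrophils play a part in the MRPS6 difference was not tested.

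MRPS34, a mitochondria-specific protein needed for a stable small subunit, was the other member without overlap. It read 8.51, 8.77, 8.41, 8.45 and 8.40 in mild cows and 8.29, 8.33, 8.28, 8.34, 8.39 and 8.27 in severe cows. The gap between mild 5 and severe 5 was 0.009, so the separation was narrow, and the difference was -0.19 ± 0.075 (SE, limma adjusted p = 0.341). A second, weaker MRPS34 probe set differed by 0.13 ± 0.085. MRPS11 and MRPS7, bacterial-type proteins on the path of the messenger RNA and transfer RNA, differed by -0.27 ± 0.10 and -0.26 ± 0.11 (SE). At the decoding centre and the messenger entry, MRPS5 differed by -0.18 and MRPS24 by -0.16, both with intervals that reached past 0, to 0.010 and 0.027. MRPS18B, the paralog of MRPS18A that stays in the small subunit, differed by -0.083.

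MRPS36, MRPS30 and MRPS18A carry an S name but belong elsewhere by structure. The first works as an adaptor of the oxoglutarate dehydrogenase complex of the citric acid cycle, and the RefSeq table gives it the synonym KGD4. It had the most negative difference of all members, -0.70 ± 0.16 (SE, limma adjusted p = 0.282), or 1.62-fold lower. Its signals were 8.76, 9.27, 9.14, 8.85 and 8.67 in mild and 8.68, 8.09, 8.57, 8.11, 8.10 and 7.88 in severe cows. Severe 1 just passed mild 5, and the other 5 severe cows lay below all mild cows. In the fit with the neutrophil score as a covariate, which cannot separate the score from the regime, the MRPS36 difference was -0.28. MRPS30, found only in mitochondria, was 7.50 ± 0.07 (SD, n = 6) against 7.77 ± 0.26 (SD, n = 5), a difference of -0.27 ± 0.11 (SE). MRPS18A, a paralog of MRPS18B built into the large subunit, differed by -0.17 with an interval from -0.38 to 0.026. In the fit with the neutrophil score it was further from 0, at -0.39. Without MRPS36, 58 of 66 members were lower, 16 of them at an unadjusted p under 0.05.

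**Figure D3:**
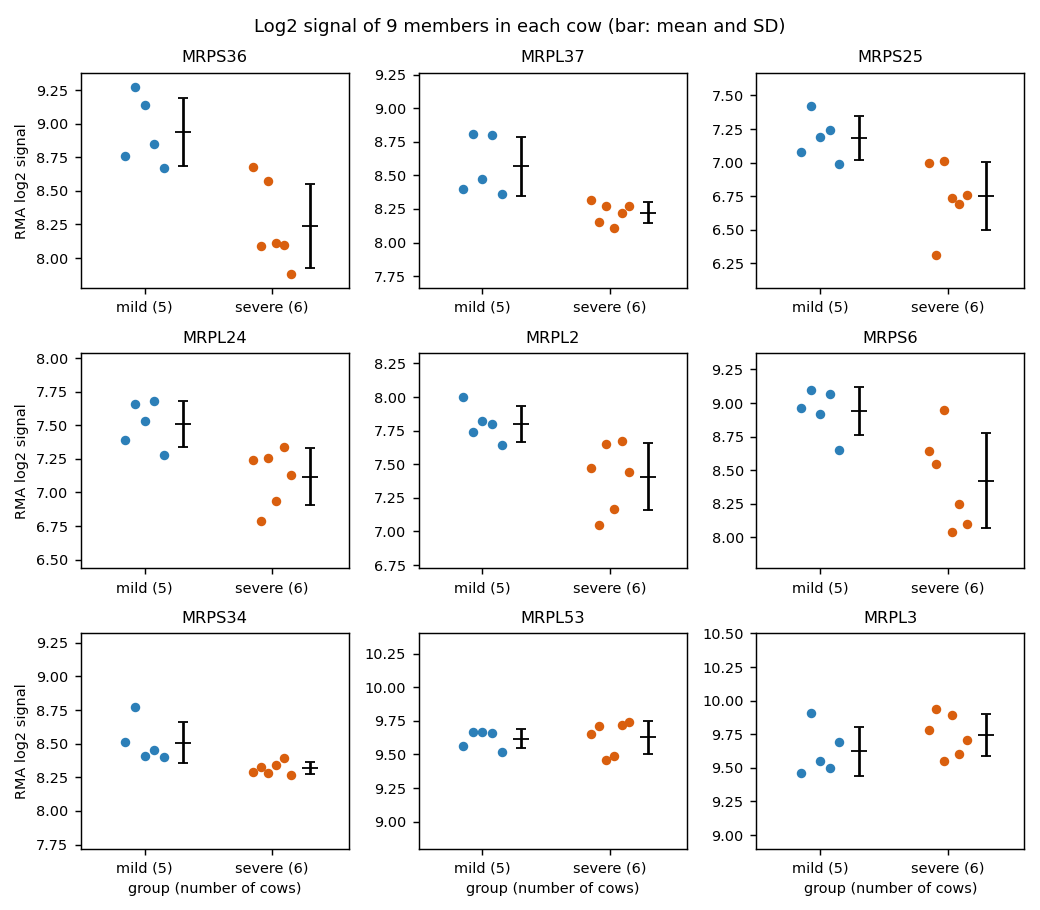
RMA log2 signal (y axis) of 9 members in each mild (blue, n = 5) and severe (orange, n = 6) cow, with the mean and SD of the group as black bars; each panel spans 1.6 log2 units, so distances can be compared. MRPS36 shows the widest separation (means 8.94 and 8.24), MRPL37 and MRPS34 do not overlap, MRPL53 is level and MRPL3 is higher in severe cows on average.

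Members with a higher mean in severe cows numbered 8, and each of their intervals included 0. MRPL53 was nearly level, at 9.56, 9.67, 9.67, 9.66 and 9.52 in mild and 9.65, 9.71, 9.46, 9.49, 9.72 and 9.74 in severe cows, with an interval from -0.15 to 0.17. MRPS2, a bacterial-type protein of the small subunit, differed by 0.018, with an interval from -0.14 to 0.17. MRPS31 was higher by 0.067 (interval -0.068 to 0.20), MRPS35 by 0.062 and MRPS14 by 0.054. For MRPL42 the difference of 0.0064 had an interval from -0.27 to 0.28, wide enough to hold many of the negative differences above. The signs of MRPL22, MRPL42, MRPL53, MRPS2, MRPS14 and MRPS35 were not stable across processing choices, MRPL22, MRPL42 and MRPL53 turning with a second quantile normalization. The 9 members with a mean signal of 9 or more, MRPL3 and MRPL53 among them, had a median difference of -0.056 and 0 at an unadjusted p under 0.05. The 17 members at that threshold had mean signals from 6.94 to 8.66. Split at the median signal of the members, 8.32, the brighter part had 7 of 33 at the threshold and a median difference of -0.11. The dimmer part had 10 of 34 and a median of -0.15. The share of all genes at the threshold in these signal ranges was not counted, so nothing is read from these counts.

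For 14 members the array held more than 1 probe set, 17 further ones in all. In 7 members, MRPL14, MRPL39, MRPL43, MRPL46, MRPS2, MRPS34 and MRPS35, a further probe set had the opposite sign, and 0 of those were at an unadjusted p under 0.05. In MRPL39, MRPL46 and MRPS2 the opposite probe set was dim. Conversely, a second probe set of MRPS28 differed by -0.49 ± 0.15 (SE, limma adjusted p = 0.306) where the brighter one differed by -0.24, and a second one of MRPL39 by -0.26 where the brighter one differed by -0.050. Averaged over the probe sets of each gene, 59 of 67 members were lower and the median was -0.13. Of these, 57 were lower by their brightest probe set too, while MRPL43 and MRPL46 turned higher and MRPS2 and MRPS35 lower.

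The cows differed among themselves in how many members they held above the mean of the gene. In mild 1 to mild 5 there were 45, 65, 48, 53 and 12 such members, and in severe 1 to severe 6 there were 15, 21, 33, 12, 34 and 23. Mild 2 was the highest of all cows in 35 members, while severe 4, mild 5 and severe 2 were the lowest in 15, 14 and 13. Mild 5 was thus on the side of the severe group, and the other mild cows were above 0 on average.

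**Figure D4:**
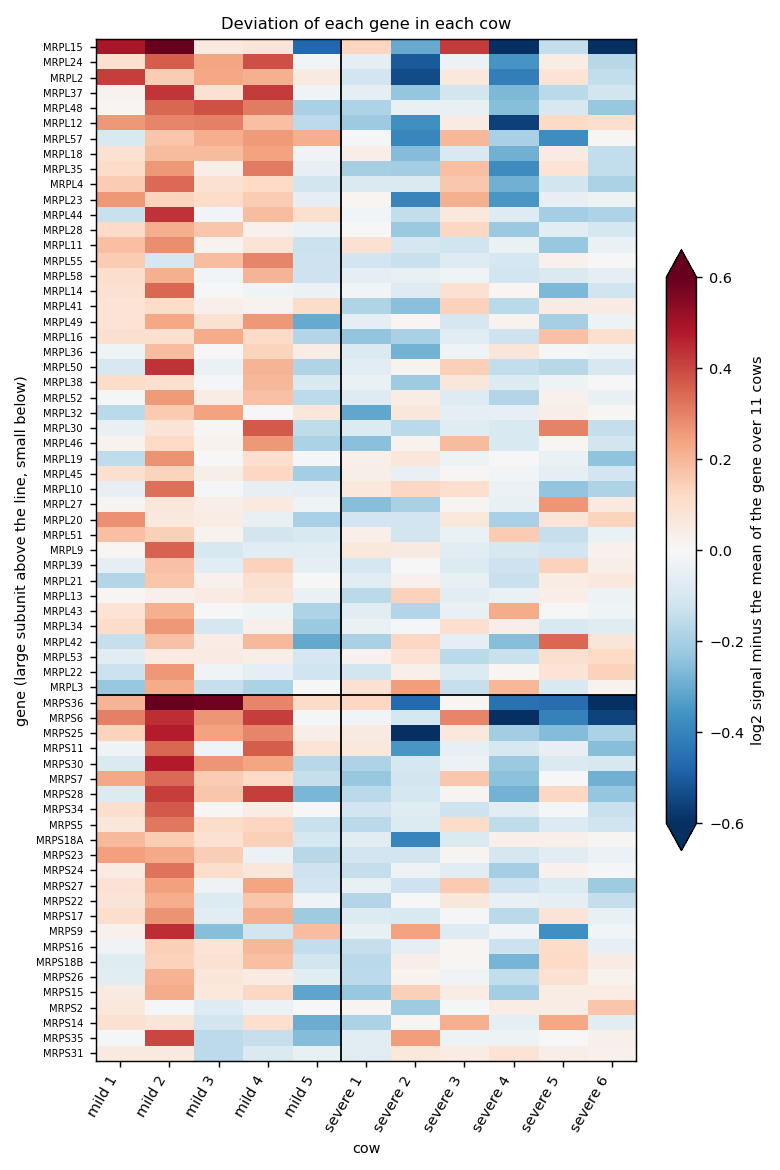
Log2 signal minus the mean of the gene over the 11 cows (colour, cut at 0.6 on both sides) for the 43 large (above the line) and 24 small subunit genes (y axis) in each cow (x axis), ordered within a subunit by the difference between the groups. Mild 2 is above the mean in 65 genes, and mild 5 in 12, like severe 4.

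Other measures were set beside these values, and their part in the result was not tested. Where a fit with a measure as covariate was run, its values are given. The neutrophil score was -1.41, -2.13, -0.91, -0.71 and -1.64 in mild 1 to mild 5 and -0.12, 0.25, 0.52, 2.66, 2.00 and 1.50 in severe 1 to severe 6. Mild 2, highest in the ribosomal transcripts, had the lowest neutrophil score, but mild 5, lowest in them among mild cows, had the next lowest. Markers of macrophages (8 of 8), B and plasma cells (6 of 6) and T and NK cells (12 of 12) were likewise higher in severe cows, with medians of 0.90, 1.93 and 0.79. When the fit carried this score as a covariate, 53 of 67 members had a lower mean, the median was -0.10 and 2 were at an unadjusted p under 0.05, against 2.73% of all probe sets. Those were MRPL55 and MRPS18A, so 0 of the 17 kept their call. Since the scores of the groups did not overlap, most of the contrast between groups is shared with this covariate. Cell division genes, 18 of 18 with a lower mean in severe cows and a median of -0.42, were highest in mild 2 (mean deviation 0.90) and at -0.51 in mild 5. At an unadjusted p under 0.05 there were 3 of them (16.7%), against 7.46% of all genes taken as lower. Their median was -0.24 without mild 2, and without mild 5 there were 9 at the threshold, against 8.37% of all probe sets. With the neutrophil score as a covariate 15 were lower, the median was -0.10 and 0 were at the threshold. Epithelial markers had mean deviations between -0.35 and 0.45 in mild and between -0.92 and 0.42 in severe cows. With them as a covariate 60 members were lower and 16 were at that threshold, against 5.95% of all probe sets. Smooth muscle markers had 4 of 6 lower in severe cows, a median of -0.28 and 0 at an unadjusted p under 0.05. Their mean deviation ran from -0.67 in mild 5 to 0.60 in mild cows and from -0.98 to 0.45 in severe cows. RNA quality was read from 6 control transcripts as the 3' minus 5' signal. It averaged 0.56 ± 0.07 (SD, n = 5) in mild cows against 0.59 ± 0.14 (SD, n = 6). Severe 2 had the highest value, 0.82, and severe 4 the lowest, 0.42, and these cows were the lowest in 13 and 15 members. Mild 5, the lowest in 14, was at 0.60. With this difference as a covariate 60 members were lower and 14 were at an unadjusted p under 0.05, against 5.28% of all probe sets.

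Lists around the mitochondrial ribosome were set beside it. Proteins of the particle that carry other names differed by -0.085 in the median, with 5 of 6 lower and 0 at an unadjusted p under 0.05. Without mild 2 the median was -0.016 and 3 of 6 were lower. DAP3, a small subunit protein that binds GTP, differed by -0.14 and AURKAIP1 by -0.13. Factors that assemble the particle or modify its RNA had 16 of 23 lower and a median of -0.052. C1QBP, a matrix protein that binds nucleic acids, was the 1 member there at the threshold, with -0.42 ± 0.14 (SE, limma adjusted p = 0.317), and MALSU1, which acts late in assembly of the large subunit, differed by -0.18. Translation factors had 7 of 11 lower, a median of -0.050 and 1 at the threshold in each direction. Without mild 2 there were 5 of 11 lower and the median was 0.050, and without mild 1 it was -0.11. GFM2, which splits the subunits after translation, averaged 6.59 ± 0.12 (SD, n = 5) in mild cows against 6.33 ± 0.08 (SD, n = 6), without overlap (limma adjusted p = 0.294). TSFM, the exchange factor of elongation factor Tu, differed by 0.33 ± 0.15 (SE). Leaving out any 1 cow other than severe 1 or severe 3 ended the higher call.

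Enzymes that charge mitochondrial transfer RNAs were split, with 6 of 13 lower and a median of 0.017. IARS2, the isoleucine enzyme, differed by -0.24 ± 0.082 (SE) and FARS2, the phenylalanine enzyme, by -0.23 ± 0.11. Factors of mitochondrial DNA upkeep, transcription and biogenesis had 5 of 11 lower, a median of 0.047 and 0 at an unadjusted p under 0.05. NRF1, a nuclear factor that acts on many genes of mitochondrial proteins, differed by 0.16, and SSBP1, which binds single-stranded mitochondrial DNA, by -0.13. The median of this list was -0.013 without severe 4.

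Subunits of the respiratory chain and ATP synthase, the complexes that the mitochondrial ribosome helps to build, had values close to those of the ribosomal proteins: 75 of 79 were lower, the median was -0.16 and 26 were at an unadjusted p under 0.05. That count was 12 without mild 3, 13 without mild 2 or mild 4, 14 without severe 2, 15 without severe 4 and 46 without mild 5. It was 8 after adjusting for the neutrophil score and 44 after a second quantile normalization, where 2.73% and 6.75% of all probe sets were lower at that threshold. The shares for the single cows are those given above for the ribosomal proteins. NDUFA11 and NDUFA3, both of complex I, differed by -0.49 ± 0.11 and -0.26 ± 0.062 (SE). Other mitochondrial housekeeping proteins had 16 of 17 lower and a median of -0.17. MDH2, the malate dehydrogenase of the citric acid cycle, differed by -0.41 ± 0.11 (SE, limma adjusted p = 0.285) and PHB1, a scaffold protein of the inner membrane, by -0.50 ± 0.13. Of that list 4 were at the threshold, against 1 with the neutrophil score as a covariate, 10 without mild 5, 8 with array weights and 10 after a second quantile normalization. Array weights took 8.00% of all probe sets as lower, and the shares for the other settings are given above.

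Of the proteins of the cytosolic ribosome 30 of 62 were lower, the median was 0.0057 and the range ran from -0.11 to 0.15, with 0 at an unadjusted p under 0.05. RPS28 and RPL36A had the smallest p, with differences of 0.15 and -0.11. Mild 1 had the highest mean deviation of this list, 0.26, and mild 5 the lowest, -0.20. Without mild 1 only 8 of 62 were lower, 6 were higher at an unadjusted p under 0.05 and the median was 0.069, and without mild 5 there were 44 lower. After a second quantile normalization 50 of 62 were lower with a median of -0.058, so the balance of signs depended on both of these cows and on scaling. The mitochondrial ribosomal proteins were lower in 62 of 67 under that setting. The difference between these lists was not tested.

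**Figure D5:**
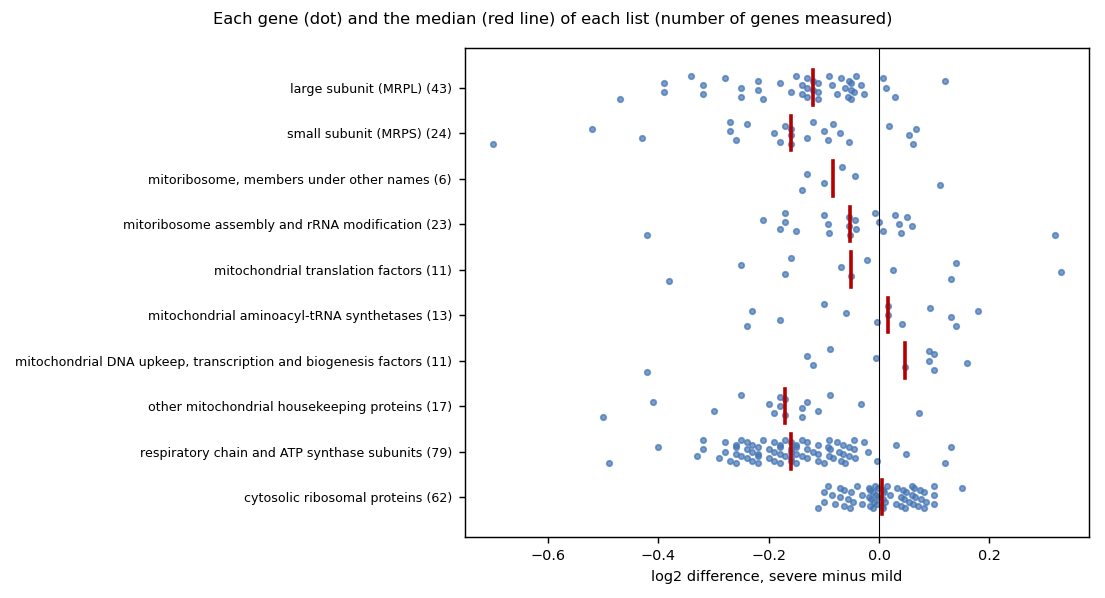
Log2 difference (x axis, severe minus mild) of each gene (dot) in the 2 subunits and in 8 further lists (y axis, number of genes measured in brackets), with the median as a red line; the height of a dot within a list carries no value. Both subunits (medians -0.12 and -0.16), the housekeeping proteins (-0.17) and the respiratory chain (-0.16) lie left of 0, and the cytosolic ribosomal proteins cluster around 0.0057.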

How the data were processed

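Endometrial RNA of 11 cows was hybridised to 1 Affymetrix bovine array each. The deposited log2 values were made by the authors with RMA (background correction, quantile normalization, probe set summary), per the submitters' processing notes. The sources used here state neither its version nor any filter, and the log2 scale was read from the values (2.65 to 14.6). Quantile normalization hides any change common to all transcripts. Arrays have no read depth, so the number of arrays limits precision. The arrays hold 24128 probe sets, 112 of them controls that were dropped. The 2016 platform annotation gave 13292 of the others 1 symbol, 86 several and 10638 none. All 84 member probe sets matched a RefSeq gene of ARS-UCD2.0 by Entrez number. The contrast of severe minus mild was fitted in R 4.3.3 with limma 3.58.1 (lmFit, eBayes; two-sided), and p-values were adjusted by Benjamini-Hochberg over 24016 probe sets. Intervals are 95% from that fit. The fitting code was run on simulated data with independent noise and planted differences larger than those of most members. That run says nothing about differences as small as most seen here. Replicate numbers only name cows, and the block of each animal is unknown here and was not fitted. Each limma p-value sets the difference between group means against the spread between cows, moderated over all probe sets. Members and lists were chosen with earlier results of these data known. Named members were the 12 lower and 8 higher ones with the smallest p, those without overlap, 2 per role list, S-named proteins placed elsewhere or related to MRPS18B, and those with discordant probe sets; in other lists, the 2 with the smallest p. A few others were named after their values were seen. Alternatives were other filters, scalings, variance models, array weights, covariates, omitted cows, probe set rules and list memberships. No sequence was used here. Python 3.11.15 and matplotlib 3.10.9 drew the figures.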

Additional observations from a re-analysis of the deposited data

Results flagged for a closer look

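In 90 sets of values (33 named members and 12 lists, mild and severe apart) 9 had 1 cow far from the rest of its group by Dixon's criterion at 95%, and chance flags about 1 in 20. In mild cows MRPL57 read 7.99 in mild 1 against 8.25 to 8.34 in the others, MRPL22 read 9.09 in mild 2 against 8.70 to 8.81, and MRPL12 read 8.32 in mild 5 against 8.66 to 8.78. In severe cows MRPS35 read 7.48 in severe 2 against 7.16 to 7.26, MRPS18A read 6.61 in severe 2 against 6.92 to 7.04, and MRPS5 read 8.21 in severe 3 against 7.94 to 8.02. Among the lists, mild 5 stood below the other mild cows in the mean deviation of the respiratory chain and ATP synthase subunits (-0.11 against 0.12 to 0.14) and of other mitochondrial housekeeping proteins (-0.13 against 0.10 to 0.18). Severe 4 stood below the other severe cows in the factors of mitochondrial DNA upkeep, transcription and biogenesis (-0.11 against 0.0039 to 0.024).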

How the results depend on the processing

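With 11 arrays and a median SE of 0.09 log2 units, single differences of the size seen here were not separable from 0 after adjustment over all probe sets: in all settings run 0 members passed, and over all probe sets 16 passed without severe 1, 2 without severe 3 and 0 in the others. No paired analysis was possible because the replicate numbers follow accession order and the blocks are not given per animal. Of the 33 named members, limma took 14 as lower at an unadjusted p under 0.05 and the exact permutation over the splits of the cows 11. Many of these members were named for their small limma p, so both counts follow in part from that choice. No share over all genes was counted for the permutation. The count of 17 was 2 after adjusting for the neutrophil score, neither of them among the 17, and 10 without mild 2 and severe 5, where 1 member was higher at that threshold; with 1 cow left out it ran from 9 to 30. The gap of large minus small subunit medians, 0.040, was 0.012 with the neutrophil score, 0.011 without mild 2 and severe 5, 0.0016 by structure, and 0.0079 to 0.066 with 1 cow left out. The median of translation factors was 0.041 without mild 2 and severe 5. With the neutrophil score the medians of translation factors and of assembly factors were 0.11 and 0.017, MRPS6 was at 0.016, MRPL14 at 0.034, MRPS14 at -0.023, MRPS2 at -0.075 and MRPL42 at -0.066. The median of the DNA upkeep and biogenesis list was -0.0056 without dim probe sets, -0.016 as a mean, and -0.013 to 0.076 with 1 cow left out. With all probe sets of a gene averaged, MRPS35 was at -0.022, MRPS2 at -0.00064, MRPL43 at 0.010 and MRPL46 at 0.030. A second quantile normalization put MRPL22 at -0.0064, MRPL53 at -0.015 and MRPL42 at -0.013. Array weights put MRPL53 at -0.022 and MRPL42 at -0.064. MRPL42 was also at -0.010 with the 3' minus 5' difference, at -0.019 with the epithelial score and at -0.017 without mild 2 and severe 5, where MRPL43 was at 0.015. With 1 cow left out, medians also crossed 0 for translation factors (-0.11 to 0.050), enzymes that charge transfer RNAs (-0.034 to 0.041) and cytosolic ribosomal proteins (-0.044 to 0.069). Among named members the ranges that crossed 0 were -0.014 to 0.10 for MRPS14, -0.00083 to 0.10 for MRPL22, -0.013 to 0.063 for MRPS2, -0.012 to 0.046 for MRPL53, -0.069 to 0.059 for MRPL42 and -0.084 to 0.018 for MRPL43. The cause of these changes was not tested.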
